A study of Mustela putorius furo and Mus musculus with 4 samples.

Results

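Annexins are proteins that bind acidic phospholipids of membranes when calcium rises. They were examined here in primary astrocytes cultured from ferret and mouse cerebral cortex. The members were the genes with the symbols Anxa1, Anxa2, Anxa3, Anxa4, Anxa5, Anxa6, Anxa7, Anxa8, Anxa9 and Anxa11, matched without regard to case, and the row with the highest species mean was taken where a symbol had several. Of these 10 members, 10 had a row in the mouse libraries, 8 had one in the ferret libraries, and these 8 were among 13373 symbols found in both species.

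The study cultured astrocytes of both species and compared their transcriptomes, with 2 ferret and 2 mouse libraries. The ferrets were taken at postnatal day 1, and the mice, of the ICR strain, at postnatal day 1 to 3. In both species mixed glial cells grew for 14 days in serum, the flasks were shaken to remove other glia, and the remaining cells were replated, kept 3 days with serum and 4 days without it, and lysed on day 7 for polyA-selected, stranded mRNA libraries. No treatment or genetic change was applied, the cells of 1 ferret pup filled 4 flasks while 4 mouse pups shared 1, and species therefore cannot be told apart from anything else that differed between the 2 kinds of culture, the reference genomes and annotations included.

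The family shares a conserved core built of repeats, which in most members hold calcium at the membrane surface. Each member also has an amino-terminal tail that differs from member to member and binds other proteins. Annexins bridge membranes, take part in exocytosis and endocytosis, and gather at torn plasma membrane. In the brain, annexin A1 is known as an anti-inflammatory protein induced by glucocorticoids, and annexin A2 as a partner of S100A10 at the cell surface.

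The core is visible in the coding sequence, and the following mouse stretches are shown because these 6 genes carry most of the mix described here and differ in where the calcium-binding motif begins. Each runs 5′ to 3′ on the coding strand of the GENCODE M21 principal transcript (GRCm38), and the capitals mark the first in-frame match to the motif GG, any 4 bases, GG, any base, AC, any base, with 15 bases on each side.
Anxa1: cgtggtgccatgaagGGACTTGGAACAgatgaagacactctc
Anxa2: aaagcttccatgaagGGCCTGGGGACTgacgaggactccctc
Anxa3: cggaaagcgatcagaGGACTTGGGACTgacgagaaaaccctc
Anxa5: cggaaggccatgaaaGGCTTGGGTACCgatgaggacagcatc
Anxa7: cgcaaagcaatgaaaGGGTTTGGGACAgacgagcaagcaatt
Anxa11: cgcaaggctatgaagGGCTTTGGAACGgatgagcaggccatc

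The motif was searched in frame on the coding strand alone. Of 21584 mouse coding genes, 13.3% held it at least once and 0.422% (91 genes) held it at least 3 times. Anxa3, Anxa4, Anxa5, Anxa7, Anxa8 and Anxa11 each held it 3 times, Anxa1 and Anxa2 each 2 times, and Anxa6, whose core is doubled, 5 times. No match was found in Anxa9. The first match began at codon 33 of Anxa3, codon 28 of Anxa5, codon 197 of Anxa7 and codon 213 of Anxa11. In Anxa4 and Anxa8 it began at codon 29 and 36, and in Anxa1, Anxa2 and Anxa6 at codon 129, 120 and 107. Annexins A7 and A11 are known for long amino-terminal tails, and their coding sequences had 485 and 503 codons against 323 for Anxa3 and 319 for Anxa5. Anxa1 and Anxa2 had 346 and 339 codons, so a late first match did not go with a long coding sequence there. A match is a description of letters and not a measured binding site.

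The 8 annexins measured in both species gave a sum of 918 FPKM in ferret library 1 and 943 in library 2, and of 1937 and 1953 FPKM in the 2 mouse libraries. FPKM counts fragments per kilobase of exon and is normalised to the mapped fragments of a library. The mouse mean of 1945 ± 10.98 FPKM (SD, n = 2) was 2.09 times the ferret mean of 930 ± 17.5 FPKM (SD, n = 2). As a share of the FPKM of all 13373 shared symbols, the 8 annexins took 0.404% and 0.399% in ferret and 0.645% and 0.634% in mouse. The family was thus a larger part of the measured transcripts in the mouse libraries on either scale. A large part of this difference lay in Anxa3 alone, at 43.8 and 46.0 FPKM in ferret and 680 and 688 FPKM in mouse. The FPKM files carry no read counts, and depth was not analysed here. In bulk RNA fewer cells of a type cannot be told apart from less RNA per cell.

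The mix differed as well as the sum. Anxa3, an annexin with a short tail, took 4.77% and 4.88% of the summed annexin FPKM in ferret and 35.1% and 35.3% in mouse. Anxa11, which binds the calcium sensor ALG-2, made up 13.4% and 13.7% in ferret and 0.832% and 0.838% in mouse. Anxa7, a binding partner of sorcin, took 9.91% ± 0.522 in ferret and 2.82% ± 0.078 in mouse (SD, n = 2 each). With the FPKM of the 2 mouse copies of Anxa11, described further on, simply added, its mouse share was 1.87% and 1.85%. The largest differences in share, ferret minus mouse, were -30.4 percentage points for Anxa3, 12.7 for Anxa11, 7.90 for Anxa1 and 7.09 for Anxa7. Shares of a library add to a fixed whole, so the low ferret share of Anxa3 raises the ferret shares of the other members. The higher share of Anxa1 in ferret thus stood beside a lower FPKM, 416 on average against 717 in mouse.

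Among the 8 members measured in both species, Anxa1 was the most abundant in each. It took 44.7% ± 1.42 of the sum in ferret and 36.8% ± 0.891 in mouse (SD, n = 2 each). Anxa5, which binds phosphatidylserine and is used as a label of dying cells, took 20.1% ± 0.462 and 18.1% ± 0.644. Anxa6 took 4.27% ± 0.126 in ferret and 4.24% ± 0.061 in mouse, and the libraries of the 2 species overlapped for this member. The 3 most abundant of these 8 in each library together made up 78.9% and 77.8% in ferret and 90.2% and 90.0% in mouse. Shares within a library do not depend on a factor that rescales the whole library. With 2 libraries against 2, a two-sided exact permutation test cannot give a p below 0.333, so the shares were given as a description.

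**Figure D1:**
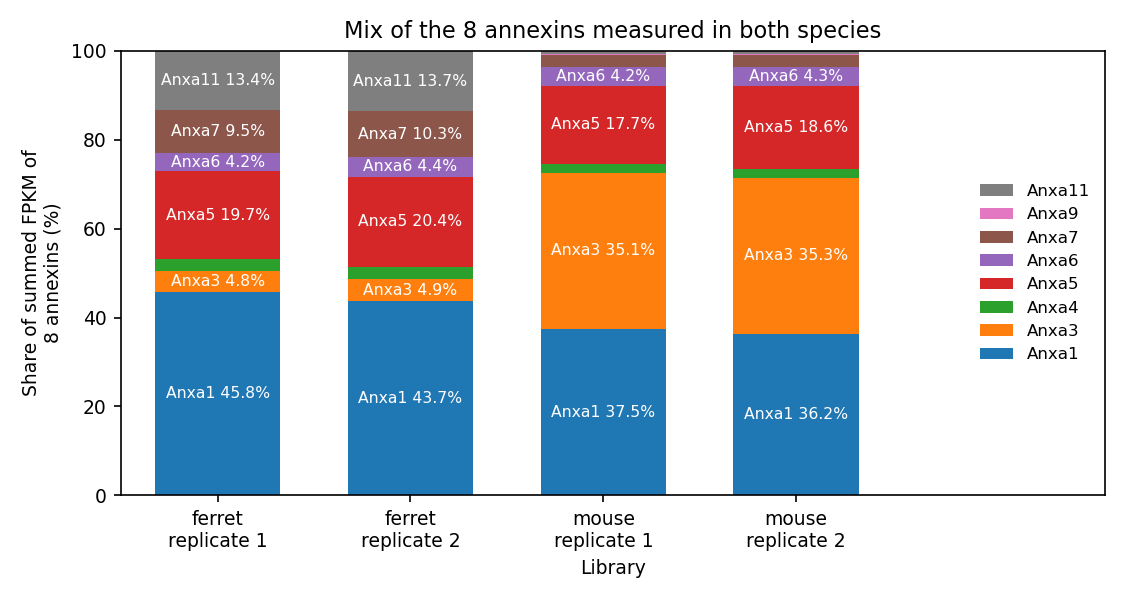
Share (%) of each of the 8 annexins in their summed FPKM, 1 stacked bar per library (ferret 1 and 2, mouse 1 and 2). The Anxa3 segment is about 35% in the mouse bars and under 5% in the ferret bars, while the Anxa11 segment is about 13% in ferret and under 1% in mouse.

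The order of the members by FPKM, a scale that accounts for transcript length, followed from these shares. In ferret it ran Anxa1, Anxa5, Anxa11, Anxa7, Anxa3, Anxa6, Anxa4 and Anxa9, and in mouse Anxa1, Anxa3, Anxa2, Anxa5, Anxa6, Anxa7, Anxa4, Anxa11, Anxa8 and Anxa9. The libraries of neighbours in this order did not overlap in either species, except for Anxa11 and Anxa8 in mouse. Ratios within a library showed where the order turned. Anxa1 was 9.58 and 8.97 times as high as Anxa3 in ferret and 1.07 and 1.03 times in mouse. Anxa11 was 1.41 and 1.33 times as high as Anxa7 in ferret and 0.300 and 0.291 times in mouse. The mouse value of Anxa11 is uncertain, and its plain sum with its 2 copies was 36.6 and 36.5 FPKM. That was close under Anxa4, at 36.9 and 37.5 FPKM, and still under Anxa7. Other pairs kept closer proportions, since Anxa5 was 4.72 and 4.68 times Anxa6 in ferret and 4.21 and 4.34 times in mouse.

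**Figure D2:**
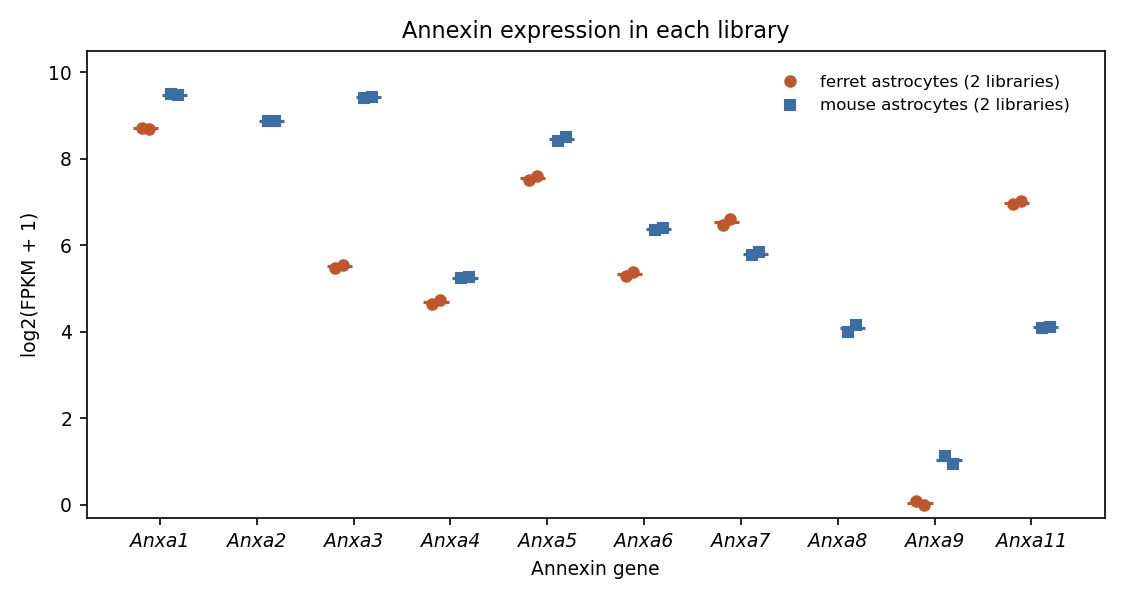
FPKM (log axis) of the 10 annexins in each library, ferret and mouse libraries as separate points. Anxa2 and Anxa8 have mouse points alone. The Anxa3 points stand for means of about 45 FPKM in ferret and 684 FPKM in mouse. Those of Anxa11 stand for about 126 FPKM in ferret and 16 FPKM in mouse.

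Members were then compared one by one on log2(FPKM + 1) with limma, fitted on all 10204 shared symbols with a mean of at least 1 FPKM in a species. A gene was called where its adjusted p was under 0.05 and its log2 difference larger than 1 in either direction. All 8 members passed the filter, Anxa9 through its mouse mean of 1.04 FPKM alone. Anxa11 was called higher in ferret, against a background of 13.1% of all genes tested, and Anxa3 and Anxa6 were called lower, against 30.1%. In either direction 3 of the 8 were called, where 43.2% of all genes were. The adjusted p alone was under 0.05 for all 8 members and for 88.6% of genes, and the libraries of the 2 species did not overlap for all 8 members and for 94.1% of genes. The median log2 difference of the 8 was -0.85 and that of all genes -0.35. The p-values measure the spread between these libraries, which the labels do not say came from separate cultures.

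Anxa3 was listed at 43.8 and 46.0 FPKM in ferret and at 680 and 688 FPKM in mouse. Both ferret libraries were far below both mouse libraries, by a ratio of 15.2 between the means. The log2 difference, ferret minus mouse, was -3.90 ± 0.058 (SE), with a limma adjusted p of 1.81e-11. Within a library Anxa3 ranked at percentile 92.0 and 92.2 in ferret and 99.8 in both mouse libraries. The mouse gene lies on chromosome 5, plus strand, chr5:96793339-96845966 (GRCm38), in 15 exonic regions.

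Beside this difference stood markers of other cells that a cortical glial culture can hold. Among all genes tested, 30.1% were called lower and 13.1% higher in ferret. All 11 microglial markers tested were called lower in ferret, and they summed to 9.46 and 8.75 FPKM in ferret and 577 and 567 FPKM in mouse, with Cx3cr1 listed at 0 in both ferret libraries. Of 10 meningeal fibroblast markers, 9 were called lower in ferret, with sums of 187 and 166 FPKM against 1957 and 1901 FPKM. Among them Tyrobp, a microglial adaptor, averaged 0.688 FPKM in ferret and 146 in mouse, and Serpinf1 averaged 0.111 and 642. C1qa, a complement subunit, had a mouse row alone, at 193 FPKM in both libraries, and was not in these sums. Of endothelial markers, the 2 tested, Cdh5 and Tek, were called lower in ferret, with Cdh5 listed at 0 in ferret and at 21.96 and 22.46 FPKM in mouse. Pecam1 was listed at 0 in ferret and lay under the filter in mouse, and Cldn5 was listed at 0 in mouse. The part of these cells in the Anxa3 difference, or in those of the other members higher in mouse, was not tested. Of 10 astrocyte markers, 6 were called lower and 1, S100b, higher in ferret. They summed to 4740 and 4927 FPKM in ferret and 7247 and 7743 FPKM in mouse, but without Vim, an intermediate filament, to 3554 and 3654 FPKM in ferret and 3104 and 3361 FPKM in mouse, the opposite direction. Gfap, the astrocyte intermediate filament, averaged 1502 ± 29.1 and 1487 ± 82.7 FPKM (SD, n = 2 each), whereas Slc1a2, a glutamate transporter, averaged 0.155 FPKM in ferret and 49.4 in mouse.

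Anxa11 was listed at 123 and 129 FPKM in ferret and at 16.1 and 16.4 FPKM in mouse. The ferret libraries were the higher ones, by a ratio of 7.76 between the means, which is the opposite direction to Anxa3. The log2 difference was 2.88 ± 0.058 (SE), with a limma adjusted p of 8.73e-11. Anxa11 ranked at percentile 98.2 in ferret and at 70.7 and 70.8 in mouse. Of 5 oligodendrocyte lineage markers tested, 2 (Sox10 and Mbp) were called higher in ferret and none lower. Among all genes tested, 13.1% were called higher and 30.1% lower. Olig2 and Cspg4 lay at -0.82 and -0.47. The markers with rows in both species summed to 62.1 and 71.9 FPKM in ferret and 15.3 and 13.9 FPKM in mouse, but with Olig1, which had a mouse row alone, the mouse sum was 123 and 131 FPKM. Of 3 neuronal markers tested, 2 (Syt1 at 1.46 and Dcx at 1.25) were called higher, with Map2 at -0.68. The neuronal markers with rows in both species summed to 26.3 and 25.9 FPKM in ferret and 31.9 and 33.2 FPKM in mouse. With Stmn2, which had a mouse row alone at 124 and 127 FPKM, the mouse sum was 155.5 and 160.5 FPKM. The part of these cells in the Anxa11 difference was not tested.

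Mouse Anxa11 is a gene whose reads can be shared with near-identical copies. It lies at chr14:25842156-25886804 (GRCm38, plus strand), and 26.0% of the 50-base stretches of its principal transcript also occur in another annotated transcript on the same strand. The copies were the unprocessed pseudogenes Gm2260, at chr14:26016431-26025837, and Gm2274, at chr14:26156036-26163648, which were singled out after their values were seen. Gm2260 was listed at 12.1 and 11.8 FPKM and Gm2274 at 8.42 and 8.29 FPKM, so the mouse value of Anxa11 is uncertain. The plain sum of mouse Anxa11 and both copies was 36.6 and 36.5 FPKM. FPKM is divided by the length of each gene, so this sum is not a corrected level of Anxa11. With it the log2 difference was 1.76 ± 0.057 (SE), still called higher in ferret with a limma adjusted p of 1.54e-09. No stretch was shared with other genes for Anxa1, Anxa2, Anxa3, Anxa5, Anxa6, Anxa7 and Anxa8. Copies in the ferret genome were not analysed here.

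Anxa7 was listed at 87.6 and 96.9 FPKM in ferret and at 53.6 and 56.2 FPKM in mouse. Both ferret libraries were higher, and the log2 difference of 0.74 ± 0.066 (SE) had a limma adjusted p of 2.64e-06 but stayed under the fold threshold. The call depended on the scaling between libraries, being 1.12, 1.14 and 1.09, and called, when libraries were set to a common sum, to a sum of 1000000 or to common quantiles. Anxa7 and Anxa11 were the 2 of 8 members with a higher value in ferret.

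Anxa1 was listed at 420 and 412 FPKM in ferret and at 726 and 707 FPKM in mouse. The mouse libraries were the higher ones, by a ratio of 1.72 between the means, and the log2 difference of -0.78 ± 0.059 (SE) did not reach the fold threshold, with a limma adjusted p of 7.15e-07. The gene ranked at percentile 99.6 in ferret and 99.8 in mouse, so it was among the most abundant transcripts of both cultures. It lies at chr19:20373428-20390944 (GRCm38, minus strand). The genes with the most similar values over the 4 libraries were Actb, Calr and Rpl13a, at Euclidean distances of 0.265, 0.292 and 0.417 on the log2(FPKM + 1) scale. Actb, cytoplasmic actin, was listed at 386 and 382 FPKM in ferret and 786 and 799 FPKM in mouse.

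Anxa5 was listed at 181 and 192 FPKM in ferret and at 342 and 362 FPKM in mouse, without overlap. The log2 difference was -0.91 ± 0.063 (SE), with a limma adjusted p of 3.25e-07, and was not called. Anxa6, which carries 2 copies of the core in 1 chain, was listed at 38.4 and 41.1 FPKM in ferret and at 81.2 and 83.5 FPKM in mouse. Its log2 difference of -1.03 ± 0.060 (SE) was called with a limma adjusted p of 9.74e-08, close to the fold threshold. The call of Anxa6 was lost at -0.65, -0.66 and -0.69 under the same 3 scalings, and at -0.99 without ferret replicate 1.

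Anxa4, known from secretory epithelia, was listed at 23.9 and 25.5 FPKM in ferret and at 36.9 and 37.5 FPKM in mouse. Its log2 difference was -0.57 ± 0.061 (SE), with a limma adjusted p of 1.03e-05, and was not called. Anxa9, the member without a motif match, was listed at 0.067 and 0 FPKM in ferret and at 1.18 and 0.910 FPKM in mouse, so that no fold was formed.

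**Figure D3:**
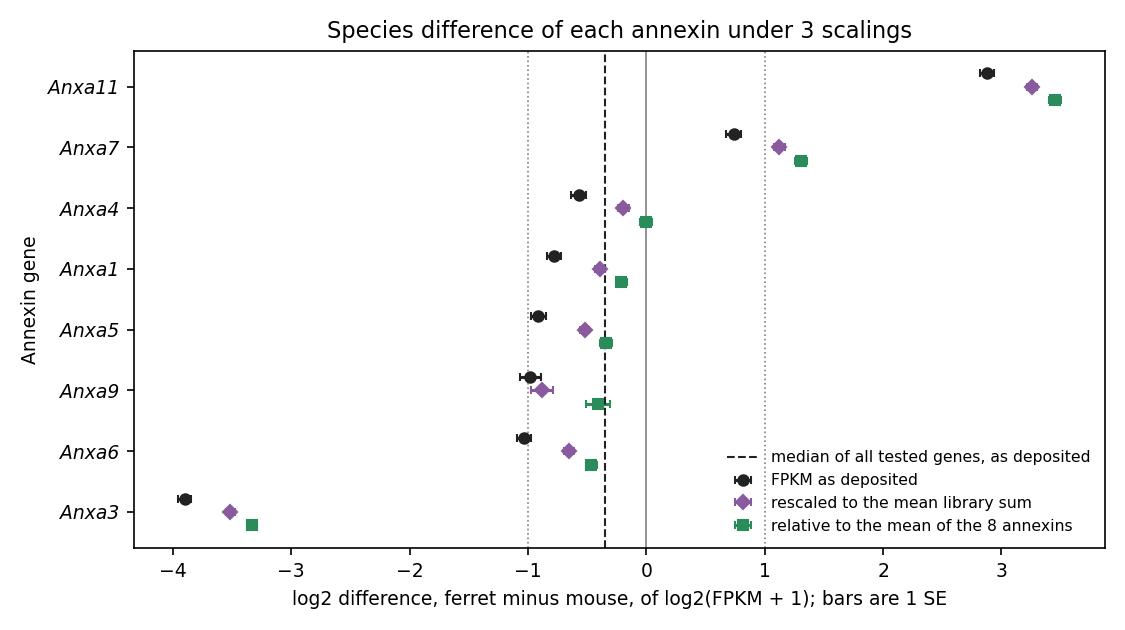
Difference in log2(FPKM + 1), ferret minus mouse, of the 8 annexins measured in both species under 3 scalings, with bars of 1 SE. Anxa11 is above 2.8 and Anxa3 below -3.3 under each scaling, whereas Anxa6 and Anxa7 cross the fold threshold of 1 between scalings.

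Another comparison set each member against the family, by subtracting the mean log2(FPKM + 1) of the members in the same library, which largely removes any scaling factor common to a library. In this fit Anxa11 (3.45 ± 0.049, adjusted p = 1.15e-10) and Anxa7 (1.31 ± 0.054, adjusted p = 2.85e-08) were called higher in ferret by limma, where 24.9% of all genes were. Anxa3 (-3.33 ± 0.044, adjusted p = 8.46e-11) was called lower, where 16.9% of all genes were, and either direction together took 41.7% of all genes. The adjusted p alone was under 0.05 for 7 of the 8 members and for 88.9% of all genes. The call of Anxa7 was lost, at 0.80, when the median of the members replaced their mean. Anxa1, Anxa5 and Anxa6 lay at -0.21, -0.34 and -0.46 and were not called, and Anxa1 turned to 0.055 with a pseudocount of 0.1. Anxa4 lay at -0.0021, with a 95% confidence interval of -0.12 to 0.12 and a limma adjusted p of 0.971. The subtraction moves all differences by the same amount, so the order of the members was already set by the first fit. The mean includes the members tested, Anxa3 among them. Anxa3 and Anxa11 lay farthest from it, in opposite directions.

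The other members had no ferret row. Anxa2 was listed at 466 and 470.2 FPKM in mouse, between Anxa3 and Anxa5, and took 19.3% of the summed FPKM of the 10 mouse members. Anxa8, which is close in sequence to Anxa5, was listed at 15.04 and 16.99 FPKM in mouse, or 0.659% of that sum. With them the mouse sum was 2418 and 2440 FPKM. The ferret mix is therefore known for 8 members, and the missing rows say nothing of the ferret levels of Anxa2 and Anxa8. A RefSeq table for another ferret assembly lists ANXA2 and has no row with the symbol ANXA8.

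Outside the 10 members, Anxa10 was listed at 0.021 and 0 FPKM in ferret and at 0.155 and 0.092 FPKM in mouse. Anxa13, known from intestine and kidney, was listed at 9.36 and 9.64 FPKM in ferret and at 0 in both mouse libraries. No fold was formed for it. Mouse Anxa13 has no coding transcript in GENCODE M21.

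S100 proteins bind annexin tails, and the 2 of 4 in the list with rows in both species were lower in ferret. S100a6 was listed at 808 and 886 FPKM in ferret and at 2373 and 2368 FPKM in mouse, a log2 difference of -1.49 (limma adjusted p = 2.07e-08). S100a4 was listed at 1.39 and 2.52 FPKM in ferret and at 159 and 161 FPKM in mouse, a log2 difference of -5.79 (limma adjusted p = 2.80e-10). S100a10, the partner of annexin A2, averaged 299 ± 7.08 FPKM (SD, n = 2) in mouse, and S100a11, a partner of annexin A1, averaged 763 ± 27.8 FPKM (SD, n = 2). Neither had a ferret row, and the same was true of Anxa2.

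Penta-EF-hand proteins, calcium sensors of which some bind Anxa7 and Anxa11, differed less. Of 7 tested, none was called higher and 1 lower, where 13.1% and 30.1% of all genes were. The lower one was Capns1, the small calpain subunit, with 86.9 FPKM in ferret and 404 in mouse on average (log2 difference -2.20, limma adjusted p = 7.65e-10). Pdcd6, which encodes ALG-2, averaged 82.2 FPKM in ferret and 64.6 in mouse, with a log2 difference of 0.34. Sri, which encodes sorcin, averaged 82.1 and 146 FPKM, with a log2 difference of -0.83. The sensors known to bind Anxa11 and Anxa7 thus did not reach the fold threshold. Pef1 (0.11), Capn1 (0.29), Capn2 (-0.76) and Gca (-0.81) were not called, and the median log2 difference of the list was -0.76 against -0.35 for all genes.

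Of 13 membrane repair genes, 9 were tested, 3 were called lower in ferret, near the 30.1% of all genes, and none higher, with a median log2 difference of -0.033. Dysf, whose product dysferlin recruits annexins to membrane wounds in muscle, averaged 0.196 FPKM in ferret and 19.3 in mouse (log2 difference -4.09, limma adjusted p = 5.63e-11). Ehd1, a membrane-remodelling ATPase, had a log2 difference of -1.75, and Smpd1, acid sphingomyelinase, one of -1.03. The call of Smpd1 was lost at -0.65, -0.66 and -0.70 under the 3 scalings and at -0.95 without ferret replicate 1. Chmp2a, an ESCRT-III subunit, averaged 105.1 FPKM in both species, and Chmp4b, another, averaged 71.3 and 111 FPKM. Myof, a relative of dysferlin named after its values were seen, averaged 58.0 FPKM in ferret and 29.8 in mouse, with a log2 difference of 0.94 that was not called, and of 1.32, 1.34 and 1.28, called, under the 3 scalings. The 2 dysferlin relatives thus differed in opposite directions. Ahnak, Chmp3 and Vps4a had mouse rows alone, and Trim72 was listed at 0 in both ferret libraries and at 0.030 and 0.046 FPKM in mouse.

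Annexin A2 with S100A10 is known to gather plasminogen and its activator at the cell surface. Of 3 genes tested in this list, 1 was called higher and 2 lower in ferret, where 13.1% and 30.1% of all genes were. Plau, urokinase, averaged 14.5 FPKM in ferret and 5.62 in mouse (log2 difference 1.23, limma adjusted p = 2.29e-07). Plat, tissue plasminogen activator, averaged 50.4 and 127 FPKM (-1.31, limma adjusted p = 1.18e-08, and not called at -0.93, -0.94 and -0.97 under the 3 scalings), and Plaur, the urokinase receptor, averaged 0.996 and 5.003 FPKM (-1.59, limma adjusted p = 5.40e-08). The 2 plasminogen activators thus differed in opposite directions. Plg was near 0 in both species, and Plgrkt had a mouse row alone, at 34.8 FPKM on average.

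In the list around annexin A1, 2 of 3 genes tested were called lower in ferret, where 30.1% of all genes were. Pla2g4a, the cytosolic phospholipase that annexin A1 is known to inhibit, averaged 0.064 FPKM in ferret and 12.8 in mouse (log2 difference -3.70, limma adjusted p = 9.91e-11). Nr3c1, the glucocorticoid receptor, averaged 8.65 and 25.0 FPKM (-1.43, limma adjusted p = 2.33e-08). Tsc22d3, a glucocorticoid-induced gene, averaged 40.4 and 28.7 FPKM and was not called at 0.48. The receptor Fpr2 was under the filter, at 0.038 FPKM in ferret and 0.706 in mouse, Fpr1 averaged 1.86 FPKM in mouse and had no ferret row, and Fpr3 was listed at 0 in mouse.

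**Figure D4:**
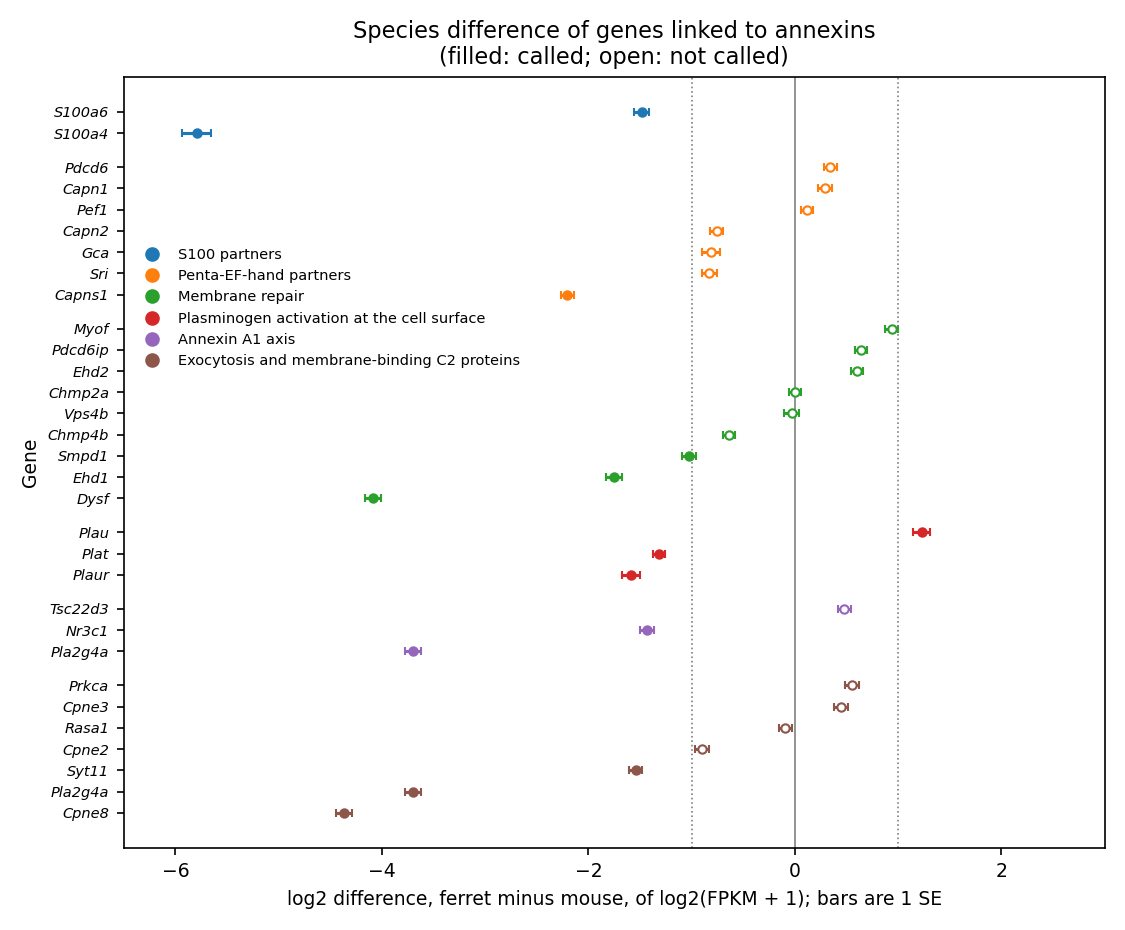
Difference in log2(FPKM + 1), ferret minus mouse, of genes linked to annexins, coloured by list, with bars of 1 SE. Filled points are called and open points are not, with S100a4, Cpne8 and Dysf farthest to the left and Plau the filled point on the right.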

How the data were processed

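RNA of cultured astrocytes was sequenced in 2 ferret and 2 mouse libraries. The authors aligned the reads with STAR (2.7.0f), after conversion with bcl2fastq (2.17), to the Ensembl ferret or mouse genome, and the deposited values are FPKM per gene from Cufflinks (2.2.1). These versions come from the submitters' processing notes. FPKM of separate libraries are not scaled to a common sum, and gene models differ between species, so ferret and mouse values also carry differences in annotation. These values give no depth, and read counts were not used here.

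Gene symbols of the species were joined ignoring case (14584 in ferret, 55139 in mouse, 13373 in both), and the row with the highest species mean was kept. Differences were fitted with limma (3.58.1, R 4.3.3), with empirical Bayes moderation and an expression trend, on log2(FPKM + 1), which understates differences of low genes, and Benjamini-Hochberg adjustment ran over 10204 genes with a mean of at least 1 FPKM in a species. A call needed an adjusted p under 0.05 with a log2 difference beyond 1 in size. On simulated data for this comparison, 98.5% of 200 genes changed by 1.5 on the log2 scale were recovered among 10204 genes, with 0 false calls. The simulation drew independent noise at the spread between libraries of a species, with as many genes raised as lowered and no shift between species. It therefore cannot speak to false calls from annotation or scaling. The members and lists were chosen with earlier results of these data known. Named were all members, all genes of lists with up to 7 genes, and of longer and marker lists up to 4 called genes with the largest difference, up to 2 not called with the highest mean and defining markers listed at 0, plus the 3 genes nearest to the most abundant member. Mouse positions and sequences were read from GENCODE M21, and shared stretches were counted as 50-base words. Alternatives covered the pseudocount, the filter, the scaling, the variance trend, the choice of rows, the replicate block and each library left out. Some genes of the lists are not reported here and were left out of the lists' counts and sums.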

Additional observations from a re-analysis of the deposited data

How the results depend on the processing

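Anxa3 stayed called lower in ferret under every alternative run, between -3.93 and -3.51. Anxa11 stayed called higher, between 1.76, with the FPKM of its 2 mouse copies simply added, and 3.32. That alternative and the marker sums without Vim or with genes of 1 species were chosen after seeing the data. Anxa6 and Anxa7 depended on the scaling: 2 annexins were called higher when libraries were rescaled to the mean library sum, to a sum of 1000000 or by quantile normalization, and 1 was called lower under the first and the last of these. Under the rescaling to the mean library sum, the median of all genes moved from -0.35 to -0.01, and under quantile normalization to 0.05, and the share of higher calls among all called genes moved from 30.3% to 46.9% and 49.98%. The log2 ratio of the summed annexin FPKM, -1.06 as deposited, was -0.67 after rescaling to the mean library sum and -0.77 after quantile normalization. Relative to the family, 1 annexin was called higher when the median of the members replaced their mean, with Anxa7 at 0.80, and 2 were called lower with a pseudocount of 0.1, the second being Anxa9. With that pseudocount, the relative difference of Anxa1 turned to 0.055 and that of Anxa4 to 0.25. Anxa4 ranged from -0.020 to 0.016 when 1 library was left out. Anxa9 was called lower at -3.13 with a pseudocount of 0.1, at -1.95 after rescaling to a sum of 1000000, at -1.03 without ferret replicate 1 and at -1.08 without mouse replicate 2. Chmp2a, at -0.0010, turned to 0.39 under both sums and to 0.36 under quantile normalization, and ranged from -0.048 to 0.046 with 1 library left out. Smpd1 and Plat lost their calls and Myof gained one under the 3 scalings. Pla2g4a, Dysf and Cpne8, all low in ferret, moved to -6.31, -6.04 and -6.43 with a pseudocount of 0.1, so their sizes depend on it. Except where the construction shows it, the cause was not tested.

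The replicate numbers of the 2 species do not pair the libraries, since same-numbered libraries come from different animals, and their deviations from the species means had a correlation of 0.0099 over genes. With the replicate block, 1 annexin was called higher and 2 lower as before, and 1342 genes were higher and 3072 lower in place of 1336 and 3069. Where 1 library is left out, the lone library of its species is assumed to vary like those of the other species. Values from 2 libraries a species, as FPKM alone, limit what can be said of low members such as Anxa9.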

Other observations

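Proteins with C2 domains bind membranes in response to calcium by another fold than annexins do. Of 7 such genes tested, 3 were called lower in ferret, where 30.1% of all genes were, and none higher, with a median log2 difference of -0.90 against -0.35 for all genes. Cpne8, a copine, averaged 0.170 FPKM in ferret and 23.2 in mouse (log2 difference -4.37, limma adjusted p = 3.68e-11), and Syt11, a synaptotagmin, averaged 34.9 and 104 FPKM (-1.54, limma adjusted p = 4.64e-09). Pla2g4a was the other one. Cpne2 (-0.90) and Prkca (0.55), which encodes protein kinase C alpha, were not called, and Cpne1 had a mouse row alone.

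Between the libraries of a species, the median absolute log2 difference of the members was 0.087 in ferret and 0.039 in mouse, beside 0.081 and 0.065 for all genes.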
